A study of Mus musculus with 8 samples.

Results

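The baseline described here is that of 4 wild-type cultures, the samples titled control 1 to control 4, out of 8 arrays in all. The other 4 arrays, of cultures from IL-15RaKO mice, which lack the receptor subunit that binds interleukin-15, enter no comparison below. Hepatic stellate cells were taken from the livers of wild-type B6/129 mice, a mixed background, that are labelled female and were 6 weeks old. Livers were perfused with pronase and collagenase, the cells were separated on a Percoll density gradient and cultured in medium with 20% serum, and RNA was taken at passage 0. No sort on a surface marker is given in the labels, which also do not say whether the 4 cultures came from separate animals, so the spread between arrays may be technical. Each sample was hybridised to 1 Illumina MouseRef-8 BeadChip array, a 1-colour platform with bead-bound probes. All 25697 probes were ranked by their mean signal in the authors' quantile-normalised values. Those with a detection p under 0.05 on all 4 control arrays, termed above background, were kept, which left 6358 probes (24.7%), 5988 of them with 1 gene symbol, for 5265 genes.

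Stellate cells are the retinoid-storing pericytes of the liver, lying between hepatocytes and the sinusoidal endothelium. On injury, and on plastic in serum, they lose their retinoid droplets, acquire smooth muscle actin and lay down collagen, which makes them the main source of scar in liver fibrosis. Kupffer cells, the resident macrophages of the sinusoid, and sinusoidal endothelial cells are their closest neighbours in the liver.

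Signals below are linear, in the intensity units of the authors' normalisation, and sets of 4 values run from control 1 to control 4. Ranks count from the brightest of the 6358 probes. They order probes rather than transcripts, since brightness also depends on the probe. Background had a median between 113.9 and 116.6 units on the 4 arrays, and the top value was 19412 units on each, so that bright probes have little room to differ. A gene with several probes is given by the brightest of those above background on all 4 arrays. For a gene with 1 probe at background, a faulty probe cannot be told apart from a silent gene. With 1 group there was no contrast to test, and counts, ranks and standard deviations (SD) are descriptions.

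Control 3 stood apart from the other 3 arrays. It had 6760 probes above background, against 9961 on control 1, 9490 on control 2 and 9722 on control 4, and 2460 probes failed on control 3 alone. Its threshold also lay at a higher signal. Plin2 passed at 163.3, 165.5 and 165.1 units on control 1, 2 and 4 and failed at 205.1 on control 3. A miss on control 3 alone thus need not mean a lower signal there. A probe that dim elsewhere was kept only if it was higher on control 3. Pearson's r of log2 signals over the 6358 probes was 0.992, 0.980 and 0.973 among control 1, 2 and 4, and between 0.784 and 0.883 for the pairs with control 3. These are correlations across probes, which are not independent replicates. A mean ± SD below includes control 3, and where a mean so given moved by more than 15% without that array, the mean of the other 3 is added. Control 3 was the highest array on 66.1% of the 6358 probes, control 4 the lowest on 56.2%, and both held for 52.0%, so an order of that kind is the commonest one on these arrays. Among dim probes the filter favours a high control 3, and its part in these shares was not counted.

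The sex label was also checked against the arrays. Eif2s3y, a translation factor subunit encoded on the Y chromosome, had 2583, 2488, 2964 and 2495 units. The Y-linked histone demethylases Kdm5d, at 358, 398, 543 and 376 units, and Uty, at 170, 176, 271 and 177 units, were also above background on all 4 arrays. Neither probe for Xist, the RNA that coats the inactive X chromosome, was above background on any array, with a smallest detection p of 0.0827. The 4 arrays thus went against the label of female mice, and the label is not used further.

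The cell type label was set against marker lists. Of the genes with a named probe, 23 of 61 matrix genes and 16 of 25 contractile and cytoskeletal genes were above background on all 4 arrays. So were 26 of 33 macrophage and Kupffer cell genes, 14 of 23 endothelial genes and 8 of 32 T, NK and B cell genes. For comparison, 24.7% of all probes and 31.7% of the 16593 named genes passed the same threshold. The same 31.7% belongs beside the list counts given further below. The lists gave 37.7% for matrix, 64.0% for contractile, 78.8% for macrophage and Kupffer cell, 60.9% for endothelial and 25% for lymphocyte genes, so the matrix and lymphocyte shares were near those of all genes and probes. Without control 3 the counts were 32, 18, 29, 15 and 8, while all probes above background rose from 6358 to 8818 of 25697. The matrix count thus rose by a factor similar to that of all probes, and its share stayed above theirs. The lymphocyte count did not rise, so its share was then below that of all probes. Its nearness to the share of all probes therefore depended on control 3. The share of all named genes was not counted without control 3. In hepatocyte genes the count on all 4 arrays was 1 of 20, and neither of 2 erythroid genes was above background on any array. These counts do not give brightness or name the cells. By the signals given below, Acta2 and Dcn were bright side by side with the macrophage genes Fcer1g and Adgre1. Each value is of a whole culture, in which fewer cells of a type and less RNA per cell cannot be told apart.

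**Figure D1:**
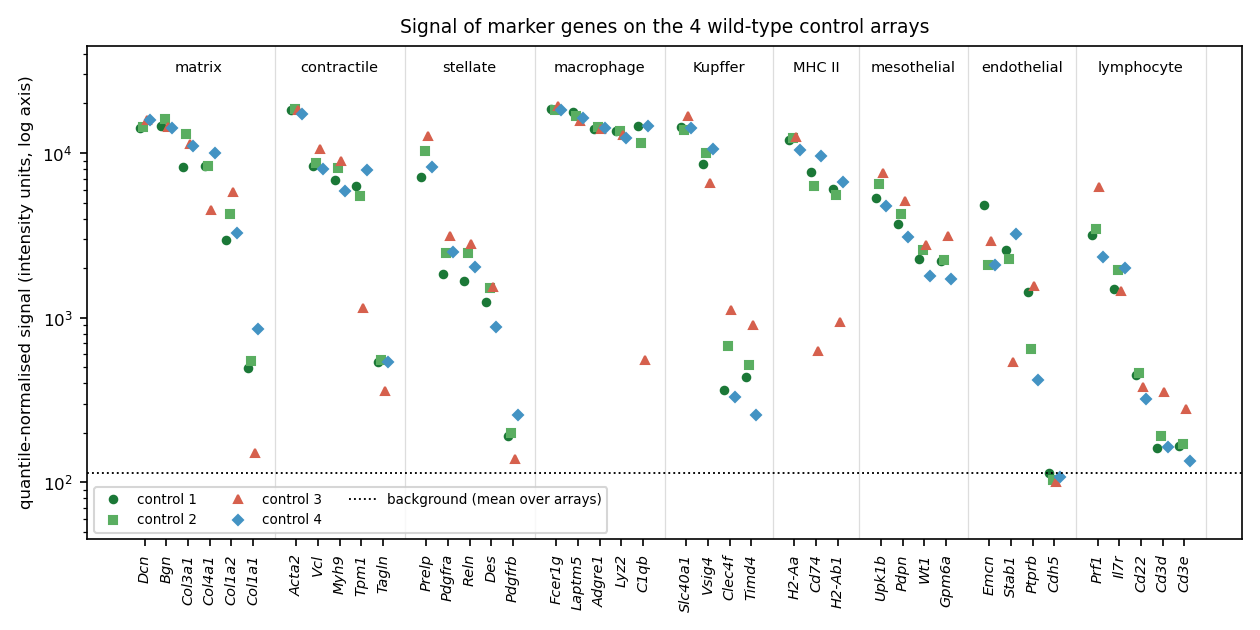
Quantile-normalised signal (vertical log axis, intensity units) of marker genes in the 4 control cultures, 1 point per array, grouped by list, with the mean background of the arrays as a dotted line. The brightest matrix, contractile and macrophage genes and the Kupffer cell gene Slc40a1 lie near the top of the scale. The Kupffer cell genes Clec4f and Timd4 are far dimmer, with means of 619 and 528 units. Cdh5 lies at background, and control 3 (triangles) falls below the other 3 arrays for C1qb, Cd74, H2-Ab1 and Tpm1.

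**Figure D2:**
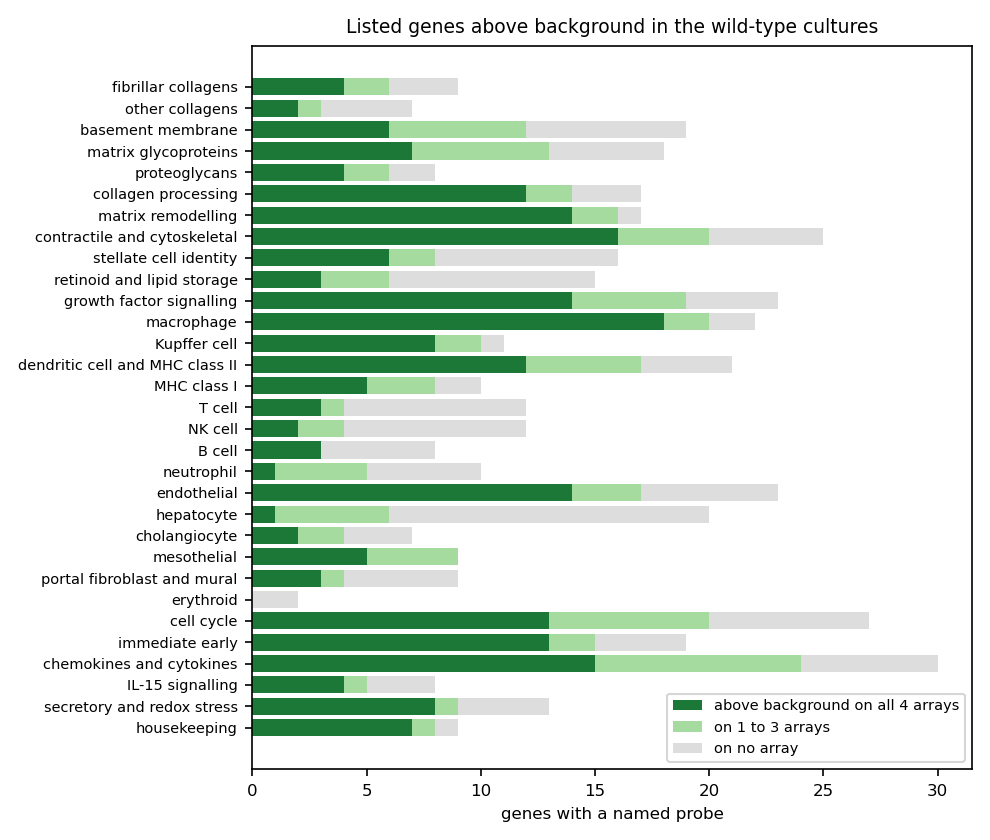
Number of genes with a named probe in each marker list (horizontal axis) that were above background on all 4 control arrays, on 1 to 3 of them or on none. Macrophage and matrix remodelling lists have the most complete bars, and the hepatocyte list is mostly at background.

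The promoters of 4 genes are shown because they carry short motifs that are textbook features of the 2 programmes. Windows run from 250 bases before the annotated start to 50 after it (RefSeq, GRCm38.p6), written 5′ to 3′ on the gene's strand, with matches in capitals. Vcl holds a CArG box, the element read by serum response factor in many contractile genes. Laptm5, Cd53 and Ctss hold GAGGAA, the core of many sites of the macrophage factor PU.1, or its reverse complement TTCCTC.
Vcl, chr14:20929148-20929447, plus strand: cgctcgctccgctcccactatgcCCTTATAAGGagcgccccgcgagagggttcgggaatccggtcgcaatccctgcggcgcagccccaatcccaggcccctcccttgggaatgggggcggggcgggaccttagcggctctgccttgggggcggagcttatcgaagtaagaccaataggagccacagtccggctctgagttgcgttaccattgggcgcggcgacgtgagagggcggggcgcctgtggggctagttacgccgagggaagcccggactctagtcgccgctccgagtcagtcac
Laptm5, chr4:130913066-130913365, plus strand: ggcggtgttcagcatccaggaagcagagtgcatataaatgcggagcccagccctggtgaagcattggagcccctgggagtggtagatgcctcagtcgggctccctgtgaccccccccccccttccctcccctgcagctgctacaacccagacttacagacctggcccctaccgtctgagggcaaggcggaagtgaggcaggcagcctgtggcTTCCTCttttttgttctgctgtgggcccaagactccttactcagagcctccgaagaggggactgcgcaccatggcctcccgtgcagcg
Cd53, chr3:106790100-106790399, minus strand: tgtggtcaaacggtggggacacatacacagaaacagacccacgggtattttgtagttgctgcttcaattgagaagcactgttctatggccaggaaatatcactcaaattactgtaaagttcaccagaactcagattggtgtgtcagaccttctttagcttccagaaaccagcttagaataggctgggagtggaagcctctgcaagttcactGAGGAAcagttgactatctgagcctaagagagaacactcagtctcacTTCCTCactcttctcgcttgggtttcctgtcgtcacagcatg
Ctss, chr3:95526536-95526835, plus strand: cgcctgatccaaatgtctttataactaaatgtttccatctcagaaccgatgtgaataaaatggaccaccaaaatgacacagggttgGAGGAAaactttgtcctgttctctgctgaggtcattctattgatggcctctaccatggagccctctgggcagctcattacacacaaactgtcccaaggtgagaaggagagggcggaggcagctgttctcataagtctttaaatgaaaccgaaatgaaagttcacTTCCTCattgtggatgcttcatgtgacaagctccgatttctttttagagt

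Both strands were searched, and the 2 motifs share no letters in any of these windows. GAGGAA or its complement stood in 12 of the 15 macrophage genes with a window among the 18 above background, against 31.3% of all 27025 genes with a window and 31.4% of the 4307 such genes above background. Among 13 contractile genes it stood in 4, among 11 immediate early genes in 5, among 6 MHC class II and dendritic cell genes in 2 and among 3 fibrillar collagen genes in 1. A CArG box stood in 3 of those 13 contractile genes, Myl6, Srf and Vcl, and in 1.81% of all genes. It also stood in 2 of the 11 immediate early genes, and in 0 of the 15 macrophage, 6 MHC class II and dendritic cell and 3 fibrillar collagen genes. A match describes the letters only, and no binding was measured here.

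The brightest probes mixed general and cell-type genes. Itm2b, a membrane protein, ranked first, with 19103, 19103, 19103 and 18325 units. Fth1, the ferritin heavy chain that stores iron, ranked second at 18673 ± 688 units (SD, n = 4), and Fcer1g, the signalling chain of Fc receptors in macrophages and other myeloid cells, came next at rank 3. Mt1, a metal-binding metallothionein, followed at 18430 ± 1193 units, then Acta2 at rank 6, the ribosomal protein gene Rps20 at 7 and Lpl, the lipase of triglyceride-rich lipoproteins, at 8. The 20 brightest genes also held Lyz1, a lysozyme whose near-identical copy Lyz2 its probe may not tell apart, Ctsb, a lysosomal cathepsin, its inhibitor Cstb, Laptm5, a lysosomal membrane protein of blood cells, Mif, a cytokine, and the actin-binding Tmsb4x and membrane-binding Anxa2. Rpl37, Rpl41, Rpl3, Gapdh, Hspa8, a chaperone, and Cox8a, a respiratory chain subunit, completed them. Among the 100 brightest probes, 89 were named, for 85 genes, of which 18 encode ribosomal proteins, 5 are on the macrophage list, 2 are proteoglycans and 1 is contractile.

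Proteoglycans led the matrix genes. Dcn, decorin, which coats collagen fibrils, had 14233, 14323, 15912 and 15803 units and rank 42. Bgn, biglycan, its close relative, had 14540, 16137, 14419 and 14161 units and rank 47. All 4 arrays were bright for both, within 1.14-fold, near the compressed top of the scale. The only Dcn probe besides was much dimmer, at 294, 266, 149 and 1020 units, and was not above background on control 3. Ogn, osteoglycin, averaged 500.1 ± 153 units, and Lum and Fmod were above background on 2 arrays each.

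Of 9 fibrillar collagen genes, 4 were above background on all 4 arrays. Col3a1, the type III collagen of early scar, had 8216, 12963, 11412 and 11059 units, lowest on control 1, and rank 137. Its other probe was not above background on any array. Col1a2, a chain of type I collagen, had 2973, 4288, 5805 and 3256 units, highest on control 3. The partner chain Col1a1 was measured by 1 probe, at 497, 546, 150 and 855 units, and missed the threshold on control 3. Type I collagen chains thus gave opposite pictures of control 3. Col5a1 and Col5a2, chains of the fibril-nucleating type V collagen, averaged 2244 ± 473 and 878 ± 215 units. Col24a1 reached the threshold on 3 arrays, and Col5a3, Col11a1 and Col27a1 on none. The 4 detected fibrillar collagens were all higher on control 2 than on control 1 and 4, whereas over all 6358 probes control 2 was the highest of those 3 arrays on 51.9%.

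Basement membrane genes, whose proteins underlie endothelium and smooth muscle, were above background on all 4 arrays for 6 of 19 genes. This was 31.6% of them, near the 31.7% of all named genes. Col4a1 had 8299, 8292, 4516 and 10060 units and Col4a2, the other chain of the same trimer, 1879, 1736, 264 and 3306 units. Both type IV chains were lowest on control 3 and highest on control 4. Hspg2, perlecan, varied little, at 999 ± 110 units, and Nid1, nidogen, averaged 531 ± 212 units, or 622 without control 3. Among other collagens, Col6a1 averaged 3238 ± 510 units and Col16a1 2340 ± 700 units, and the other 5 with a probe were not above background on all 4. Of 18 matrix glycoprotein genes, 7, or 38.9%, were above background on all 4 arrays. Sparc and Tnc were among 6 more on 1 to 3 arrays, and Thbs1, Postn, Vtn, Fbln5 and Mfap5 were on none. Those on all 4 arrays were led by Ccn2, connective tissue growth factor, a target of TGF-beta signalling, with 11286, 9193, 7174 and 10423 units. Ecm1, Thbs2 and Fbln2 followed at 1413 ± 734, 788 ± 357 and 703 ± 369 units, and without control 3 at 1758, 643 and 863 units.

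Of the genes that process and turn over matrix, 12 of 17 processing genes and 14 of 17 remodelling genes were above background on all 4 arrays. These were 70.6% and 82.4%, against 31.7% of all named genes. Plod3, a lysyl hydroxylase, averaged 5603 ± 542 units and P4hb, a subunit of prolyl hydroxylase, 5187 ± 2369 units, or 6305 without control 3. Loxl1, a collagen cross-linking enzyme, averaged 4066 ± 764 units and Bmp1, which trims procollagen, 2042 ± 445 units. Serpinh1, the collagen chaperone HSP47, had 1286, 1362, 462 and 2116 units, lowest on control 3. The cross-linker Lox had the same order, with 678, 720, 225 and 1884 units. Mmp12, macrophage elastase, was the brightest remodelling gene at 13306, 14765, 13552 and 13768 units, rank 70. Mmp13, the main interstitial collagenase of mice, averaged 6541 ± 709 units, and Mmp14, a membrane-bound activator of other proteases, 4517 ± 133 units. Timp1, a secreted inhibitor of many matrix metalloproteinases, had 4753, 3975, 2856 and 4141 units, and its relative Timp2 had 1478, 1129, 353 and 3126 units. Mmp14 was even across the 4 arrays, while Timp2 had an SD of 1.31 on the log2 scale, or 0.76 without control 3.

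Contractile genes were led by Acta2, alpha smooth muscle actin, the classical mark of activated stellate cells. Its brightest probe had 18325, 18498, 18325 and 17280 units, and a further probe 6826, 7065, 9535 and 5861 units. Another probe was only just above background, at 168 units on average, and the last was not above it on any array. Vcl, the focal adhesion protein vinculin, had 8292, 8744, 10513 and 8015 units. Myh9, a non-muscle myosin, averaged 7465 ± 1320 units. Tpm1, a tropomyosin, had 6306, 5468, 1142 and 7929 units and Myl6, a myosin light chain, 5379, 5372, 888 and 8536 units. Control 3 was the highest array for Vcl and Myh9 and the lowest for Tpm1, Myl6 and Csrp1, which had 419 units there against 2628 to 3167 on the other 3. The smooth muscle gene Tagln, chosen after its values were seen, averaged 499 ± 92 units. The smooth muscle genes Cnn1 and Myh11 and their coactivator Myocd were not above background on any array. Vim, vimentin, was above it on 2, by 1 probe with 137, 148, 138 and 180 units, so a faulty probe cannot be told apart from low expression.

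Markers that set stellate cells apart from other mesenchyme were mixed. Prelp, a leucine-rich matrix protein on the stellate list, had 7181, 10247, 12740 and 8198 units, rank 184. The receptor Pdgfra had 1836, 2486, 3148 and 2516 units, Reln, reelin, 1660, 2458, 2818 and 2029 units, and Des, desmin, 1251, 1522, 1527 and 873 units. Control 3 was the highest array for all 4 of these genes, by very little for Des, as it was on most probes. Hgf and Cygb, the cytoglobin of stellate cells, were also detected on all 4 arrays, Cygb at 284 ± 105 units, or 234 without control 3. Pdgfrb missed the threshold on control 3 alone. No array was above background for Gfap, Lrat, which esterifies retinol for storage, Hand2, Lhx2, Ngfr, Colec10, Rgs5 or Vipr1. The smallest detection p over the 4 arrays was 0.533 for Gfap and 0.209 for Lrat, each with 1 probe, so a faulty probe cannot be told apart from a silent gene.

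Retinoid and lipid storage genes were dim as well, with 3 of 15 above background on all 4 arrays, against 31.7% of all named genes. A list of 15 genes is too short to read that count as a difference. Pparg, a nuclear receptor of lipid-storing cells, averaged 480 ± 63 units, Rarb, a retinoic acid receptor, 296 ± 34 units, and Rdh10, a retinol dehydrogenase, 191 ± 61 units, or 160 without control 3. Aldh1a1, Plin2 and Dgat2 each missed the threshold on control 3 alone, although Plin2 had its highest signal there, at 205.1 units. Among growth factors and receptors, 14 of 23 genes, or 60.9%, were above background on all 4 arrays. Igf1 averaged 6301 ± 1573 units, and the TGF-beta receptors Tgfbr1 and Tgfbr2 averaged 5761 ± 1665 and 4614 ± 1981 units, the second 5534 without control 3. The transducer Smad4 averaged 3294 ± 626 units, while Pdgfb, a mitogen of stellate cells, averaged 864 ± 444 units, or 1062 without control 3. The ligands Tgfb2 and Tgfb3 missed the threshold on control 3 alone and Tgfb1 on control 2 and 3.

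Macrophage genes were the most completely detected cell-type list, with 18 of 22 above background on all 4 arrays. Fcer1g had 18646, 18142, 19412 and 18142 units, Laptm5 17767, 16896, 15760 and 16355 units, and Lgals3, galectin-3, 17036, 16413, 16564 and 14901 units. Adgre1, which encodes F4/80, the standard surface marker of mouse macrophages, had 14008, 14359, 13968 and 14117 units and rank 60. Lyz2, the myeloid lysozyme, had 13592, 13552, 12804 and 12261 units and rank 86. These 5 genes were bright and even on all 4 arrays, with SDs of at most 0.08 on the log2 scale. A second probe for Adgre1 averaged 10402 units and a second one for Lyz2 7366 units, and the dimmest of 3 for Lyz2 605 units. The last Adgre1 probe was not above background on any array. Cd53, a leucocyte tetraspanin, and Ctss, cathepsin S of antigen-presenting cells, averaged 11850 ± 763 and 11823 ± 616 units. Trem2 and Gpnmb, both genes of lipid-handling macrophages and chosen after their values were seen, averaged 15126 ± 2077 and 15970 ± 561 units. Itgam and Msr1 were not above background on any array, and Spi1, which encodes PU.1, was above it only on control 1 and 4, at 163, 124, 119 and 191 units.

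Complement genes made by macrophages were far less even. C1qb had 14648, 11541, 551 and 14616 units and C1qc 1974, 605, 278 and 5684 units. C1qa, the third chain of the same molecule, had 174, 159, 136 and 202 units and missed the threshold on control 3. All 3 C1q chains were lowest on control 3. Tyrobp, the adaptor that works with Trem2 and was chosen after its values were seen, was also lowest on control 3, with 10247, 8575, 1446 and 10247 units.

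Kupffer cell genes were above background on all 4 arrays for 8 of 11. Slc40a1, the iron exporter ferroportin, had 14469, 13869, 16831 and 14233 units, rank 46. Vsig4, a complement receptor of resident macrophages, had 8575, 9980, 6580 and 10639 units. The haemoglobin scavenger receptor Cd163 had 1499, 1307, 1948 and 552 units, the Kupffer cell lectin Clec4f 364, 672, 1108 and 331 units, and Timd4, a receptor for dying cells, 436, 514, 903 and 257 units. Those 3 genes were highest on control 3 and lowest on control 4, the order found on 52.0% of all probes. Folr2 and Nr1h3 missed the threshold on control 3 alone, and Cd5l on all 4 arrays.

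Of the genes of antigen presentation, 12 of 21 on the MHC class II and dendritic cell list and 5 of 10 class I genes were above background on all 4 arrays. These were 57.1% and 50%, against 31.7% of all named genes. H2-Aa, an MHC class II chain, had 12001, 12261, 12440 and 10459 units. Cd74, the invariant chain that escorts class II molecules, had 7695, 6310, 628 and 9624 units, and its second probe 4740, 3020, 324 and 7783 units. H2-Ab1, the partner of H2-Aa, had 6015, 5537, 937 and 6630 units. Control 3 was thus low for Cd74 on both probes and for H2-Ab1, but not for H2-Aa. Clec10a, a lectin of macrophages and dendritic cells, averaged 5065 ± 843 units. The dendritic cell genes Itgax, Zbtb46, Clec9a and Batf3 were above background on 2 or 3 arrays, and H2-Oa, Flt3, Xcr1 and Ccr7 on none. H2-DMa, which helps load class II molecules, missed the threshold on control 3 alone, with 1115, 650, 132 and 1455 units. Of class I genes, B2m averaged 15686 ± 519 units, and Psmb10, an immunoproteasome subunit, 4915 ± 1569 units, or 4168 without control 3. That Psmb10 probe was highest on control 3, at 7154 units, and the other was lowest there, at 1549 units. H2-D1, a classical class I heavy chain, missed the threshold on control 3 alone, with 877, 1228, 148 and 2641 units. Psmb8 was above background on 2 arrays, and Tap1 and Tapbp, which serve peptide loading, on none.

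Endothelial genes were detected in part and differed between arrays. Emcn, endomucin, had 4850, 2100, 2919 and 2095 units. Stab1, a scavenger receptor of sinusoidal endothelium that macrophages also make, had 2589, 2260, 537 and 3210 units. Egfl7, a secreted endothelial factor, had 2986, 1383, 819 and 1184 units, and Ptprb, a phosphatase that restrains the receptor Tek, 1440, 644, 1556 and 416 units. Among control 1, 2 and 4, control 1 was the highest array for 11 of the 14 genes above background, and for 23.1% of all 6358 probes. The median difference of control 1 from the mean of control 2 and 4 was 0.64 on the log2 scale over the 14 genes and 0.03 over all probes. Selp, P-selectin of endothelium and platelets, which was not on the list and was chosen after its values were seen, had 1846, 638, 1900 and 441 units, the same order as Ptprb. Pecam1 averaged 338 ± 89 units. The defining genes Cdh5, Kdr and Tie1, as well as Flt4, Erg and Ehd3, were not above background on any array.

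Lymphocyte genes were above background on all 4 arrays in 25% of those with a probe, against 31.7% of all named genes. The share of all probes was 24.7%. Those detected were few per cell type. Of 12 T cell genes, Il7r, Lat and Cd3d were above background on all 4 arrays. Il7r, the interleukin-7 receptor, had 1499, 1941, 1446 and 2001 units, whereas Cd3d, of the T cell receptor complex, had only 162, 190, 352 and 165 units. Cd3e missed the threshold on control 4, and Cd3g, Cd247, Cd4, Cd8a, Cd8b1, Cd2, Cd5 and Zap70 on all 4 arrays. Of 12 NK cell genes, Prf1, the pore-forming perforin, had 3184, 3445, 6241 and 2323 units on 1 probe and was at background on its other probe. The only other NK cell gene on all 4 arrays was Klrb1c, just above background at 169 ± 37 units. Klrd1, Klrk1, Ncr1, Nkg7, Gzma, Gzmb, Eomes and Tbx21 were not above background on any array, so Prf1 stood without its usual companions. Of 8 B cell genes, Cd22, Cd79b and Ebf1 were detected on all 4 arrays, at 402 ± 65, 299 ± 36 and 207 ± 87 units, the last 163 without control 3. Cd79a, Ms4a1, Pax5, Blk and Fcrla were not.

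Other liver cells were represented unevenly. All 9 mesothelial genes with a probe were above background on at least 1 array, and 5 on all 4. Upk1b, a uroplakin of the liver surface, had 5367, 6487, 7516 and 4767 units, Pdpn, podoplanin, 3723, 4272, 5099 and 3085 units, and the transcription factor Wt1 2278, 2566, 2775 and 1801 units. Gpm6a, a membrane protein, averaged 2325 ± 595 units. These 4 genes were highest on control 3 and lowest on control 4, as 52.0% of all probes were. Lrrn4, the fifth gene on all 4 arrays, went the other way, with 320, 294, 236 and 395 units. Upk3b, Krt8, Krt18 and Msln were lowest on control 3 and missed the threshold there, Upk3b at 318, 302, 120 and 609 units. Thy1, a mark of portal fibroblasts and of lymphocytes, averaged 2529 ± 615 units and was highest on control 1. Among hepatocyte genes, Fgg alone was above background on all 4 arrays, at 176 ± 45 units, and Alb, Apoa1 and Cyp2e1 were at background on all of them. S100a8 was the only neutrophil gene on all 4 arrays, at 533 ± 125 units.

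Some growth and stimulation genes were expressed in culture. Pcna, the replication clamp, and Mcm4, a replicative helicase subunit, averaged 5254 ± 357 and 2408 ± 382 units. Of 27 cell cycle genes, 13, or 48.1%, were above background on all 4 arrays, against 31.7% of all named genes. Another 7 were above it on 1 to 3 arrays, and Top2a, Ccnb2, Cdk1, Ccne2, Mcm3, Mcm7 and Bub1 on none. The cell cycle inhibitor Cdkn1a had 3936, 3825, 1541 and 4398 units. Of 19 immediate early genes 13, or 68.4%, were above background on all 4 arrays. Dusp1, a phosphatase of MAP kinases, averaged 14316 ± 2601 units, Zfp36, which destabilises inflammatory mRNAs, 13555 ± 2360 units, and Egr1, a serum-induced transcription factor, 11399 ± 1666 units. Each of these 3 was highest on control 3 and lowest on control 4, the commonest order, while Fos, at 12310, 11746, 5861 and 12403 units, was lowest on control 3. Among chemokines, Ccl9 averaged 8485 ± 2106 units, Ccl4 8280 ± 2427 units and Cxcl12, a mesenchymal chemokine, 4714 ± 1419 units.

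Il15, the ligand of the receptor deleted in the other cultures of the series, had 686, 559, 493 and 675 units. Il15ra itself was measured by 4 probes, and none was above background on any of the 4 wild-type arrays, with a smallest detection p of 0.178. Il2rb, the signalling chain shared with interleukin-2, missed the threshold on control 1 and did not exceed 252 units. Stat3, a transcription factor downstream of many cytokine receptors, averaged 3180 ± 1025 units.

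The spread between arrays was set mainly by control 3. Over the 6358 probes the median SD of log2 signals was 0.37, and it was 0.17 over control 1, 2 and 4. An SD above 1 was found for 265 probes with control 3 and for 8 without it. On a principal component analysis of the log2 signals, the first component held 92.3% of the variation, with control 3 at one end and control 4 at the other. Control 3 was the lowest array on 26.1% of probes. Relative to the mean of the other 3 arrays it was at least 2-fold higher on 700 probes and at least 2-fold lower on 702, with a median difference of 0.45 on the log2 scale. Without normalisation that median was 0.26, with 78 probes at least 2-fold higher and 949 lower, and with median scaling 0.18, with 36 and 1039. With neqc, a background correction with quantile normalisation, it was 0.51, with 1707 higher and 794 lower, so the split of the 2 directions depends on the scaling.

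**Figure D3:**
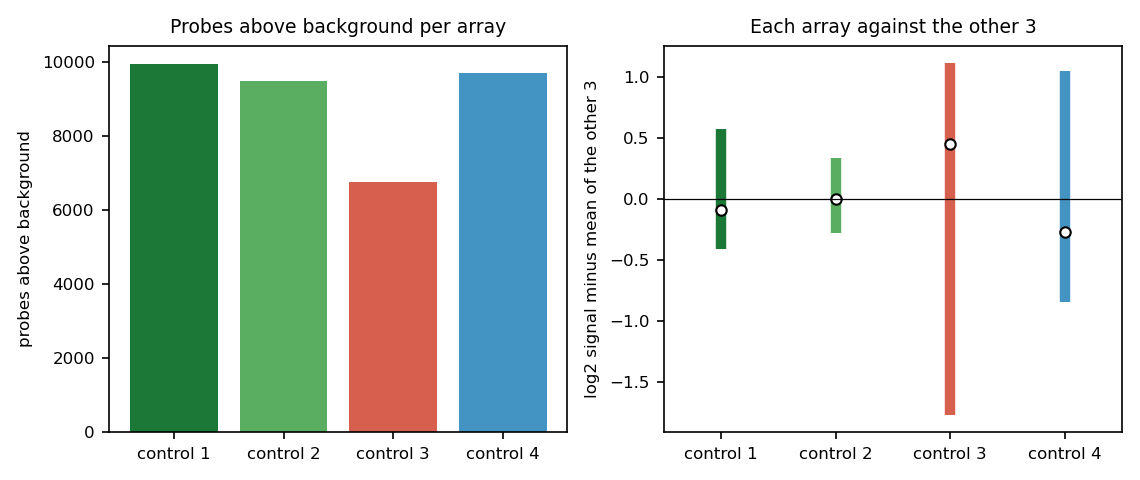
Left, probes above background on each control array (vertical axis, number of probes). Right, difference of each array's log2 signal from the mean of the other 3 over the 6358 probes, as the median (open point) and the range from the 5th to the 95th percentile (bar). Control 3 has the fewest probes above background and the widest bar.

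The genes with the largest spread were no single functional group. Rps16, a ribosomal protein gene, led with 6956, 5588, 270 and 11765 units, an SD of 2.46 on the log2 scale, or 0.55 without control 3. C1qb followed at 2.31, or 0.20 without control 3, and Prdx2, a peroxide-removing enzyme, at 2.29, or 0.47 without it. Rplp1 had 17928, 17928, 793 and 19412 units and Rpl9 14192, 13768, 727 and 18498 units. All 15 genes with the largest SD were lowest on control 3, among them Wfdc17, Rps13, Rpl36al, Cst3, a secreted inhibitor of cathepsins, Cd63, a lysosomal tetraspanin, Fcgrt, an IgG receptor, the mitochondrial genes Atp5j and Uqcrh, and Cd74. Of 49 ribosomal protein genes, 22 were at least 2-fold lower on control 3, 3 at least 2-fold higher and 24 within 2-fold, while 11.0% of all probes were at least 2-fold lower and 11.0% at least 2-fold higher.

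Probes of the same gene parted on control 3. Actb, beta-actin, chosen after its values were seen, had 16513, 16229, 3918 and 15716 units on its brightest probe and 12239, 9748, 11801 and 9476 units on the next. Of 637 genes with at least 2 probes above background on all 4 arrays, the brightest and the next probe placed control 3 at least 2-fold apart relative to the other arrays in 26.1%. That share was 12.4% for control 4, 2.04% for control 1 and 0.314% for control 2. A low value on control 3 thus belonged to a probe and not always to its gene. RNA integrity was not given in the labels, and what set control 3 apart was not tested.

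Over control 1, 2 and 4 alone, a ranking added after the data were seen, C1qc had the largest SD, at 1.62 on the log2 scale. Rpl27, with 1317, 471, 243 and 2921 units, and Lgmn, a lysosomal protease, with 671, 466, 304 and 2300 units, came next and were highest on control 4. Selp and Ptprb, described above, and Gdf10, a growth factor of the BMP family with 266, 984, 960 and 511 units, had other orders. Gdf10 was lowest on control 1, the array on which most endothelial genes were highest among control 1, 2 and 4.

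**Figure D4:**
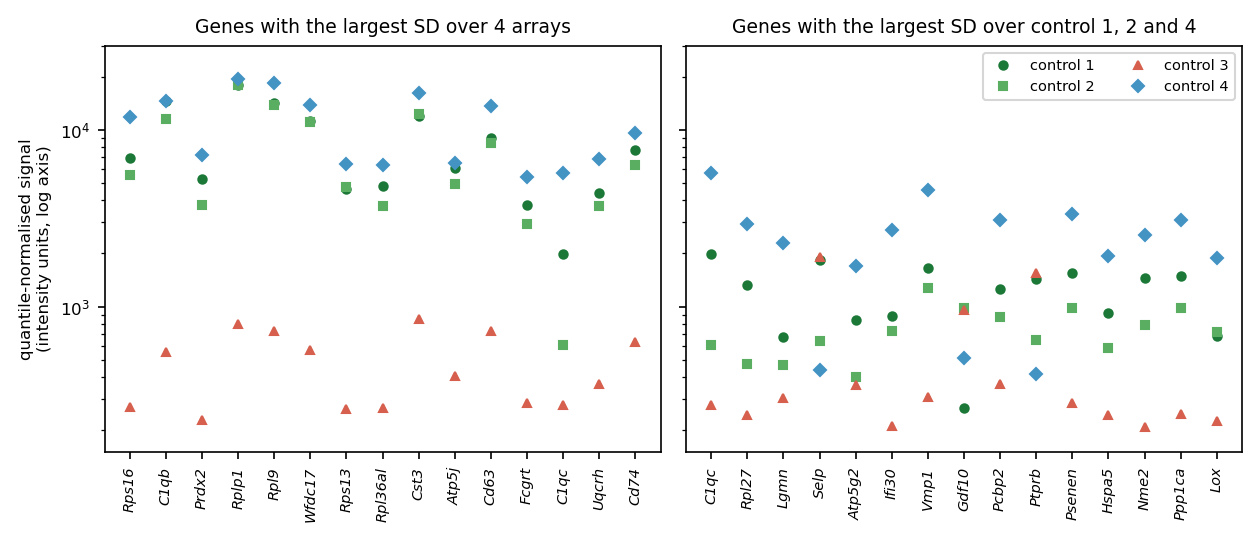
Quantile-normalised signal (vertical log axis, intensity units) of the 15 genes with the largest SD of log2 signal over all 4 control arrays (left) and over control 1, 2 and 4 (right), 1 point per array. On the left control 3 (triangles) is the lowest array for every gene, and on the right control 4 (diamonds) is the highest for most.

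The spread also varied with brightness. The median SD was 0.14 on the log2 scale over the 171 probes with a mean of at least 10000 units, whose upper end is compressed. It was largest, at 0.45, over the 1365 probes between 500 and 1000 units, and 0.32 over the 394 probes under 200 units. Without control 3 these medians were 0.08, 0.22 and 0.07, so the dimmest probes then had the smallest SD. Probes that dim on the other arrays were kept only where control 3 was higher, so their 0.32 is in part a product of the filter. Signals under 200 units lie close to background, which was not subtracted, so a small SD there does not show even expression.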

How the data were processed

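The deposited intensity values are the authors' linear bead signals, quantile normalised over the 8 arrays, beside a non-normalised table. Each deposited detection p-value sets a probe against the negative controls of its array. GenomeStudio, version 3, was used by the authors, per the submitters' processing notes. Chip positions were not given in the tables or labels, so batches by chip could not be examined.

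The platform annotation gave 1 symbol to 23978 of 25697 probes and left 1719 unnamed, and checking symbols against the GRCm38.p6 gene table changed 0. Of 497 listed genes, 452 had a named probe. SDs are of log2 signals without a pseudocount. The members and the 32 lists were chosen with earlier results of these data known. Genes were named by rule: the markers, the 20 brightest genes, the 15 with the largest SD, up to 4 brightest and 2 most variable members per list, listed members of macrophage, endothelial and lymphocyte lists that were undetected, Il15, Il15ra and sex-linked genes. Other genes were chosen after their values were seen, and so were the listed names of the stellate, contractile, fibrillar collagen, matrix glycoprotein, cell cycle, dendritic and hepatocyte lists given as undetected.

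Alternatives were neqc of limma 3.58.1 (R 4.3.3, offset 16), no normalisation, quantile normalisation over the 4 arrays, median scaling, a pseudocount of 16, other detection limits, and each array left out. Python 3.11.15, numpy 2.4.6 and pandas 2.3.3 were used. The detection counts, the SDs and the ratio behind the flagged results were tested on simulated data. The ranking step was not among those checks.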

Additional observations from a re-analysis of the deposited data

Results flagged for a closer look

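Within the group of 4 arrays, 1 value was marked where its gap to the nearest of the others, divided by the whole range of log2 signals, passed Dixon's critical value for groups of 4. Chance marks about 5% of groups, and the bright probes at the compressed top of the scale can be marked for small gaps. Of the 173 named genes with values checked, 30 were marked, 25 of them on control 3, and over all 6358 probes the share was 10.8%. The named genes were picked in part for a large SD or after their values were seen. Their share therefore cannot be compared with that of all probes or with 5%.

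The number of probes above background was itself apart on control 3, at 6760. Control 3 was low for the macrophage list genes C1qb at 550.6 units and Tyrobp at 1446, and for Cd74 at 627.6 and H2-Ab1 at 936.7 of the MHC class II list. Genes of neither list that were low there were Cst3 at 851.6 units, Cd63 at 727.9, Wfdc17 at 571.7 and Cstb at 15010. It was low for the ribosomal protein genes Rplp1 at 792.9, Rpl9 at 727.3, Rpl36al at 268.4 and Rps13 at 264.0, and for the cytoskeletal genes Actb at 3918, Csrp1 at 418.8 and Tagln at 360.4. Atp5j at 405.6, Cdkn1a at 1541 and Fos at 5861 units were low there as well.

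Control 3 was high for 7 dim genes, Ebf1 at 336.5 units, Rdh10 at 282.1, Uty at 270.6, Il2rb at 251.9, Fgg at 242.3, Klrb1c at 223.9 and Plin2 at 205.1. The other 3 arrays had at most 177 units for each of them. Of the 7, Plin2 was not above background on control 3 in spite of its higher signal there. The threshold lay at a higher signal on control 3, so a probe this dim elsewhere was kept only if control 3 was high. Ebf1, Rdh10, Uty, Fgg and Klrb1c were above background on all 4 arrays, so for them a high control 3 was set by the filter. Control 4 was the lowest array for 4 of the brightest genes, Itm2b at 18325 units, Acta2 at 17280, Cox8a at 15912 and Rpl3 at 15612, and control 2 the highest for Ctss at 12740. What set these values apart was not tested.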

How the results depend on the processing

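The median SD of log2 signals was 0.37 over the 6358 probes. Without any filter on dim probes it was 0.090, since most of the 25697 probes lie at background. With each array left out in turn it lay between 0.17, without control 3, and 0.44, without control 2. Other scalings kept it between 0.28 and 0.46. The number of probes above background on every array used was 5427 at a detection p under 0.01, 9055 where 3 arrays sufficed and 8818 without control 3, and the counts of matrix, contractile, macrophage, endothelial and lymphocyte genes stayed within 1.5 times of those given. Of the 100 brightest probes, 87 to 97 were shared with each alternative ranking. Of 258 gene values, 96 moved by more than 1 SD between arrays under neqc, 61 when a gene's probes were averaged and 35 on non-normalised signals. That rule cannot mark a value when 1 of 4 arrays is left out, so shifts of the mean log2 signal over 0.5 were counted for that case, a count added after the data were seen. Without control 3, 39 gene values shifted by more than that, all upwards and by up to 1.21 for Rps16. Without control 4, 7 shifted, all downwards and by up to -0.76, and without control 1 or control 2, 0 did. The cause was not tested. No paired analysis was possible because 1 group alone is described and no test was made. Precision is limited by the 4 arrays, and signals near 114 units cannot be told from background. On control 3 this held for Plin2 even at 205.1 units.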
